A study of Mus musculus with 8 samples.

Results

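The genes that build, process and export the lipids of the epidermal permeability barrier were followed in forepaw skin of Krt16 null mice and their wild-type (WT) littermates. The set holds 34 genes, taken as a fixed list of gene symbols from elongation of fatty acids to secretion and hydrolysis of lipids, out of 30702 genes measured. Each was read by exactly 1 probe set of a whole-transcript Affymetrix array. Krt16 encodes keratin 16, a filament protein found in volar skin and induced when epidermis is stressed. The null group held 4 mice with paw lesions, 2 males and 2 females, with a germline allele in which bacterial LacZ stands in place of the Krt16 coding region. The WT group held 4 mice with normal paw skin, again 2 males and 2 females. All 8 mice were C57Bl/6, 8 weeks old and untreated, and RNA came from whole dissected paw skin, with 1 array per mouse. Because every null sample was lesional and every WT sample normal, the effect of the genotype and that of the lesion cannot be told apart.

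The outermost layer of the epidermis is made watertight by sheets of ceramides, cholesterol and free fatty acids between dead cells. Keratinocytes of the upper layers elongate fatty acids, join them to sphingoid bases as ceramides, attach linoleate to the longest of these as acylceramides, store the products as glucosylceramides in lamellar granules and secrete them. Lipoxygenases then oxidise the linoleate so that the lipid can be bound to the cornified envelope, and loss of many of these genes causes ichthyosis in humans or a lethal barrier defect in mice.

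Signals are RMA values in log2 units, and a difference is null minus WT with its standard error (SE) from limma, with sex in the fit. A call needed a p under 0.05 after Benjamini-Hochberg adjustment over all 30702 genes. Signals of 4 mice are listed in the order male 1, male 2, female 1, female 2, and they are not compared between genes because probe sets differ in brightness. Arrays carry no read depth, and the number of mice limits the precision. The median of the negative control probe sets was 4.26 to 4.46 over the arrays, and the mean of each of the 34 genes lay above it.

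The Krt16 probe set read 6.83, 6.87, 6.89 and 6.99 in null skin and 8.48, 8.20, 7.05 and 9.66 in WT skin. All null arrays lay below all WT arrays, the difference was -1.45 (SE 0.44, adjusted p = 0.0615), and it was not called. Krt16 was called in several other settings, such as with same-numbered mice as pairs (adjusted p = 0.0285) and without female WT 1 (-1.98, adjusted p = 0.000775), while leaving out female WT 2 gave -0.94 (adjusted p = 0.0549). In others Krt16 was not called, such as with a robust prior in limma (adjusted p = 0.184) or after repeated quantile normalization (adjusted p = 0.0619). Where its probes lie was not used here, and a probe that lies beyond the replaced region tells nothing of the allele. Markers of keratinocytes were bright on every array: the mean of 10 such genes was 11.19 to 11.25 in null and 11.12 to 11.34 in WT skin. Among them only Krt2, a keratin of upper epidermis, was called, at -0.60. Skeletal muscle markers were also present, with a mean of 8.48 to 9.04 in null and 9.25 to 10.01 in WT skin. Of these, 10 of 12 (83.3%) were called lower in null skin, against 5.98% of all genes. The part that unequal muscle content played in the results below was not tested.

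Among the called barrier lipid genes differences went in both directions, with more and larger rises than falls. Of the 34 genes, 10 were called higher in null skin, which is 29.4% against 7.07% of all genes, and 4 were called lower, which is 11.8% against 5.98% of all genes. Among the 17698 genes whose mean lay above the negative control median, as that of every barrier lipid gene did, 10.5% were called higher and 9.59% lower. The share of barrier lipid genes called lower is near that background. The other 20 genes did not pass the test. The 34 genes were chosen with earlier results of these data known, so these shares describe the set and are not a test of it. The largest rise was that of Degs2, a ceramide desaturase and hydroxylase, at 1.39, and the largest falls were those of the ceramide synthase gene Cers4 at -0.55 and the ceramidase gene Acer1 at -0.53. In bulk skin, fewer cells of a type and less RNA per cell cannot be told apart.

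Null arrays lay above all WT arrays in 11 of the 34 genes, against 10.1% of all genes, and below all WT arrays in 5 of them, against 8.76% of all genes. These are 32.4% and 14.7% of the barrier lipid genes, against 13.98% and 13.5% of the genes above the negative control median, so the share below WT is near that background. The median difference was -0.05, near the 0.01 over all genes, while the median size regardless of sign was 0.28, against 0.08 over all genes and 0.12 over genes above the negative control median. Without the female null 2 array 6 genes were called higher, while the count over all genes went from 2170 to 1725. After repeated quantile normalization 9 were higher and 6 lower, against 2033 and 1955 of all genes. The median difference was then -0.10, against 0.004 over all genes. After centring the arrays on the keratinocyte list, 11 were higher and 4 lower, while the split over all genes went to 1931 higher and 931 lower, against 2170 and 1837 before.

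**Figure D1:**
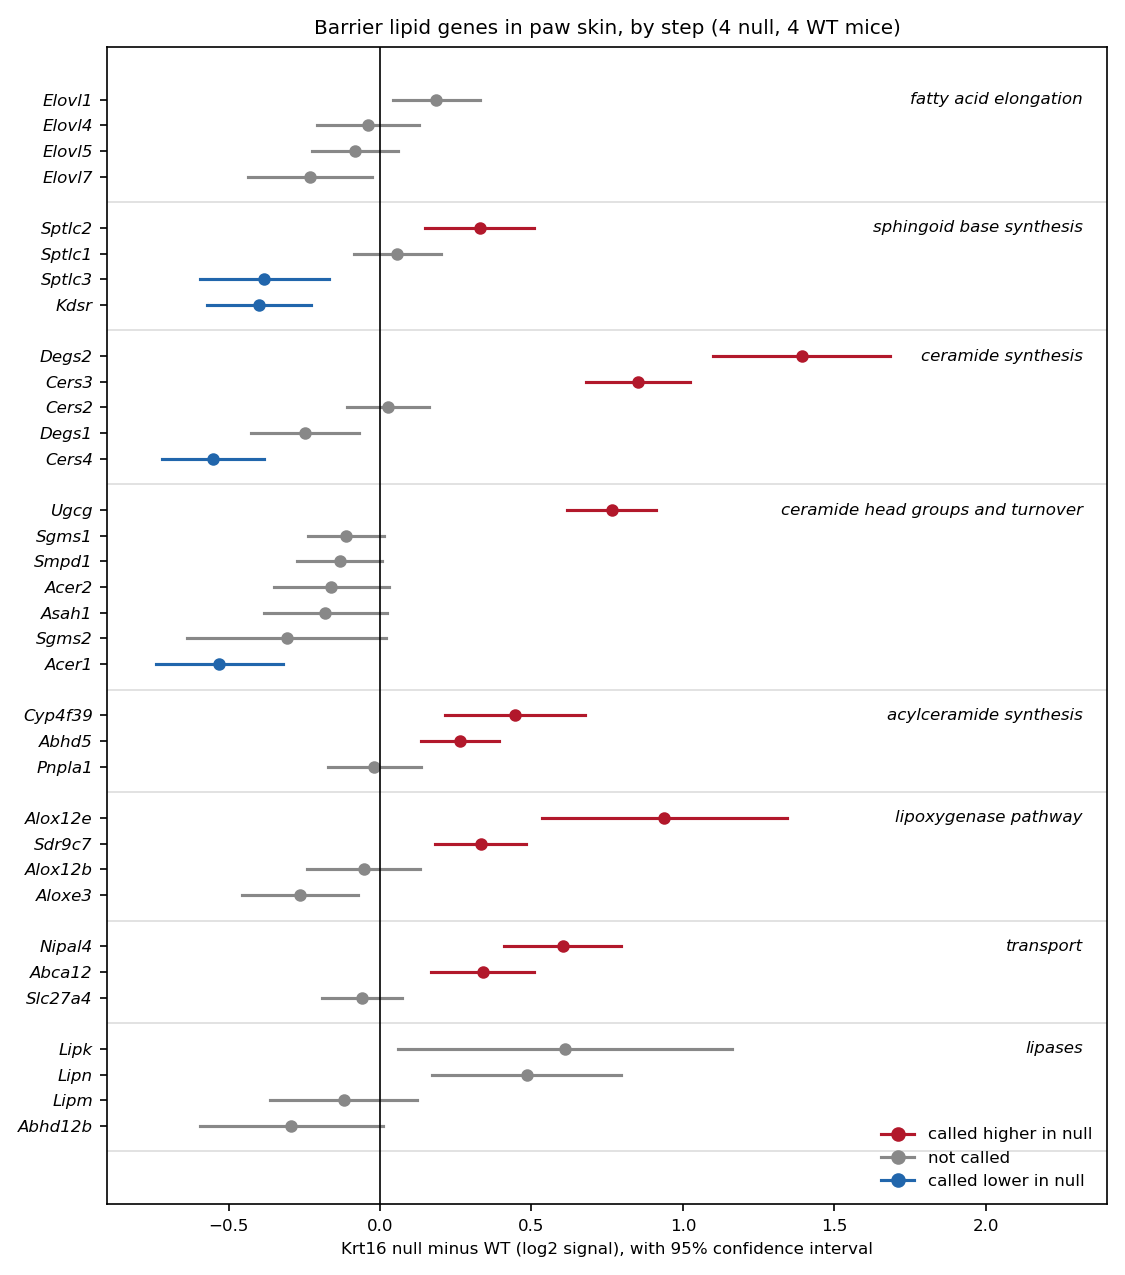
Null minus WT differences on the log2 scale (horizontal axis) of all 34 barrier lipid genes, grouped by step, with points for estimates and lines for 95% confidence intervals from limma (4 null and 4 WT mice). Red marks the 10 genes called higher, blue the 4 called lower and grey the 20 not called; the called genes run from Cers4 at -0.55 to Degs2 at 1.39.

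Bases just upstream of the start of 4 called genes are shown, since the differences concern transcript levels: Degs2, Nipal4 and Abhd5 rose and Acer1 fell. The sequences are those of RefSeq, build GRCm38.p6, and each runs 5′ to 3′ on the gene's own strand over the 250 bases that end before its annotated start. Capitals mark a match to the nuclear receptor half-site AGGTCA or its reverse complement, found in Abhd5 alone of these 4.
Degs2, chr12:108702307-108702556, minus strand: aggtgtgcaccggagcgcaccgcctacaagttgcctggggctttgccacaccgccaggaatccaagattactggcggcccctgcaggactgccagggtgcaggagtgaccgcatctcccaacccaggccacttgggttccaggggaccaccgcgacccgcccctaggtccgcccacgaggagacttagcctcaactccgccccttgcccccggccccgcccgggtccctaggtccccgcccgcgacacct
Nipal4, chr11:46166360-46166609, minus strand: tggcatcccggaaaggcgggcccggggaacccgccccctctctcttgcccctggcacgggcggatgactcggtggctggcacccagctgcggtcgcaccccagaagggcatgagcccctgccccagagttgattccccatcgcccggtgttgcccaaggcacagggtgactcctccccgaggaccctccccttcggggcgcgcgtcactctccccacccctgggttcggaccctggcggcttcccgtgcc
Abhd5, chr9:122351366-122351615, plus strand: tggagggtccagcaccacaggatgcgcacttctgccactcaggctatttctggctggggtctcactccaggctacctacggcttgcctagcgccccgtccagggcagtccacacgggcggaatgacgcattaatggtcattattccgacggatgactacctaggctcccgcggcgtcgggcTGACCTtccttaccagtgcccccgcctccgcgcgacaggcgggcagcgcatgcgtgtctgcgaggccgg
Acer1, chr17:56982127-56982376, minus strand: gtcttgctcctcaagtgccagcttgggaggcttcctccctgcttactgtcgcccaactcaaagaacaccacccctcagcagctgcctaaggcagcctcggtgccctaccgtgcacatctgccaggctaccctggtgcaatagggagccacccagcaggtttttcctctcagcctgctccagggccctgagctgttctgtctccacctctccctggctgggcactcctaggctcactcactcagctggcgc
The GC content was 69.2% for Degs2, 71.6% for Nipal4, 64.8% for Abhd5 and 61.6% for Acer1, against a median of 52.4% over all windows of the table. Promoter windows of 250 bases before and 50 after the start were matched for 31 of the 34 genes, all 14 called genes among them, in 41 windows. Lipk, Asah1 and Aloxe3 had no entry. The motifs searched, on both strands, were TGANTCA (AP-1), AACNGGTT (grainyhead-like), AGGTCA (nuclear receptor half-site) and TCACNCCAC (sterol regulatory element). None of these 4 motifs lies within another.

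AGGTCA was found in windows of 8 of the 31 genes and of 2 of the 14 called genes, Abhd5 and Cers3, and in 18.1% of the genes of the whole table. TGANTCA was found in 3 of the 31 (Lipn, Sgms1 and Sgms2) and in 8.97% of all genes, and AACNGGTT in 1 (Sgms1) and in 2.35% of all genes. TCACNCCAC was found in 0 of the 31 and in 1.44% of all genes. The 14 called genes held 0 matches to these last 3 motifs. A match is a description of letters in the window, not a binding site.

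None of the 4 fatty acid elongases was called in limma's test, with an unadjusted p under 0.05 in 2 of them, which 26.6% of all genes and 37.9% of those above the negative control median had too. Elovl4, which makes the ultra-long acyl chains particular to epidermal acylceramides, differed by -0.04 with a 95% confidence interval of -0.21 to 0.13. Its signals were 11.20, 11.24, 11.25 and 11.20 in null skin and 11.25, 11.46, 11.07 and 11.26 in WT skin, so the null values fell inside the WT range. Elovl1, which elongates saturated and monounsaturated very-long chains, differed by 0.19 (SE 0.06, adjusted p = 0.0896), with 8.37, 8.38, 8.32 and 8.27 in null and 8.08, 8.34, 8.10 and 8.08 in WT skin. The male WT 2 array was the only WT array within the null range, and without it Elovl1 was called (0.24, adjusted p = 0.0389). Elovl7, an elongase of long saturated chains, differed by -0.23 (adjusted p = 0.137) and was called without female WT 1 (-0.30, adjusted p = 0.0428). Elovl5, the elongase of polyunsaturated fatty acids, differed by -0.08 (adjusted p = 0.468).

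Genes of sphingoid base synthesis split. Serine palmitoyltransferase, which joins serine to palmitoyl-CoA, pairs the common subunit Sptlc1 with either of the catalytic subunits Sptlc2 and Sptlc3, and of these Sptlc2 was called higher and Sptlc3 lower. Sptlc2 signals were 8.06, 8.17, 8.06 and 8.21 in null skin and 7.69, 7.90, 7.66 and 7.93 in WT skin. All null arrays were above all WT arrays, and the difference was 0.33 (SE 0.08, adjusted p = 0.0274). Sptlc3 read 8.09, 7.87, 7.97 and 8.00 in null skin and 8.19, 8.54, 8.23 and 8.51 in WT skin. Here all null arrays were below all WT arrays, and the difference was -0.38 (SE 0.09, adjusted p = 0.0294). Sptlc1 differed by 0.06 (adjusted p = 0.654), with a confidence interval of -0.09 to 0.20.

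Kdsr, the reductase that acts on the product of serine palmitoyltransferase, fell with Sptlc3. Its signals were 7.20, 7.17, 7.23 and 7.32 in null skin and 7.51, 7.71, 7.51 and 7.80 in WT skin, without overlap, a difference of -0.40 (SE 0.08, adjusted p = 0.0104). Kdsr kept its call with any 1 array left out. Sptlc2 lost its call when the arrays of male null 2 (adjusted p = 0.09), female null 1 (0.0557), female null 2 (0.0792) or male WT 1 (0.0876) were left out. Sptlc3 lost its call when the arrays of male WT 2 (adjusted p = 0.0772), male null 2 (0.0986), female null 1 (0.0866), female null 2 (0.0651) or female WT 2 (0.0738) were left out.

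Ceramide synthesis held the largest rise and the largest fall of the set. Ceramide synthases attach a fatty acid to the sphingoid base and differ in the chain length they use, and the dihydroceramide desaturases then complete the base. Cers3, the synthase for ultra-long chains that the barrier requires, had 9.56, 9.68, 9.56 and 9.63 in null skin and 8.77, 8.90, 8.54 and 8.81 in WT skin. All null arrays were above all WT arrays, with a difference of 0.85 (SE 0.08, adjusted p = 0.000258), 1.80-fold. Cers4, a synthase for shorter chains, had 7.74, 7.58, 7.69 and 7.69 in null skin and 8.14, 8.40, 8.11 and 8.25 in WT skin. All its null arrays were below all WT arrays, with a difference of -0.55 (SE 0.07, adjusted p = 0.00227), 1.47-fold lower. Cers2, the broadly expressed synthase for very-long chains, differed by 0.03 (adjusted p = 0.835), with a confidence interval of -0.11 to 0.16.

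Degs2 (Entrez gene 70059), which makes both the usual sphingosine base and, by hydroxylation, the phytosphingosine base common in skin ceramides, rose most. Its signals were 6.03, 6.38, 6.00 and 5.57 in null skin and 4.58, 4.94, 4.30 and 4.59 in WT skin. Every null array was above every WT array, and the difference was 1.39 (SE 0.13, adjusted p = 0.000329), 2.62-fold. The lowest WT array, female WT 1, lay within the range of the negative control medians, so the size of this rise is not exact. Degs1, the desaturase found in most cells, had 7.95, 7.88, 7.96 and 7.90 in null skin and 8.00, 8.37, 8.20 and 8.12 in WT skin. Its null arrays also did not overlap with WT, lying below, yet the difference of -0.25 (adjusted p = 0.0751) missed the threshold. Degs1 was called without male WT 1 (-0.32, adjusted p = 0.0333) and after repeated quantile normalization (-0.30, adjusted p = 0.0439). Cers3, Cers4 and Degs2 kept their calls with any 1 array left out.

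Among enzymes that add a head group to ceramide or break it down, 1 of 7 was called higher and 1 lower. These are 14.3% each, near the 10.5% and 9.59% of genes above the negative control median. Ugcg, the synthase of the glucosylceramides that are packed into lamellar granules, read 8.83, 8.84, 8.78 and 8.99 in null skin and 7.96, 8.11, 8.11 and 8.20 in WT skin. The groups did not overlap, and the difference was 0.76 (SE 0.06, adjusted p = 0.000198), 1.70-fold. Acer1 (Entrez gene 171168), the alkaline ceramidase of differentiating epidermis, read 9.52, 9.18, 9.21 and 9.40 in null skin and 9.76, 10.01, 9.76 and 9.90 in WT skin. All null arrays were below all WT arrays, with a difference of -0.53 (SE 0.09, adjusted p = 0.00726), 1.44-fold lower. Both genes kept their calls with any 1 array left out.

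The other 5 genes of this step were not called, each with a negative difference. Sgms1 and Sgms2, the sphingomyelin synthases of the Golgi and the plasma membrane, differed by -0.11 (adjusted p = 0.238) and -0.31 (adjusted p = 0.219). Sgms2 spread widely in WT skin, with 6.60, 6.19, 6.46 and 6.37 in null and 6.65, 6.28, 7.16 and 6.75 in WT mice, and its difference was -0.18 without female WT 1. Smpd1, the acid sphingomyelinase that returns ceramide from sphingomyelin, differed by -0.13 (adjusted p = 0.212). The Golgi ceramidase gene Acer2 and the lysosomal acid ceramidase gene Asah1 differed by -0.16 (adjusted p = 0.266) and -0.18 (adjusted p = 0.242).

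Of 3 acylceramide genes, 2 rose (66.7%, against 10.5% of genes above the negative control median) and the transacylase did not pass. Cyp4f39, the P450 enzyme that hydroxylates the far end of ultra-long fatty acids, had 9.52, 9.66, 9.45 and 9.69 in null skin and 9.01, 9.34, 8.92 and 9.26 in WT skin. The groups did not overlap, with a difference of 0.45 (SE 0.10, adjusted p = 0.0218). Abhd5 (Entrez gene 67469), the cofactor that presents lipid substrate to Pnpla1 and activates the triglyceride lipase Pnpla2, had 8.66, 8.69, 8.63 and 8.71 in null skin and 8.34, 8.50, 8.34 and 8.45 in WT skin. It too did not overlap, with a difference of 0.26 (SE 0.06, adjusted p = 0.0167). Pnpla1, the enzyme that transfers linoleate to the hydroxylated ceramide, differed by -0.02 with a confidence interval of -0.17 to 0.13. It read 8.51, 8.29, 8.26 and 8.30 in null and 8.27, 8.41, 8.37 and 8.39 in WT skin.

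Both calls of the acylceramide step depended on single arrays. Cyp4f39 was not called with male null 2 (adjusted p = 0.0742), female null 2 (0.0627) or male WT 1 (0.0701) left out, nor after repeated quantile normalization (0.0559). For Abhd5 the same 3 omissions gave an adjusted p of 0.0581, 0.0533 and 0.0583, in that order.

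Of 4 genes of the lipoxygenase pathway 2 rose (50%, against 10.5% of genes above the negative control median). Neither of the lipoxygenases known to be required for the barrier, Alox12b and Aloxe3, was called. Alox12b, which starts the oxidation of linoleate in acylceramide, differed by -0.05 with a confidence interval of -0.24 to 0.13. Signals were 10.48, 10.35, 10.31 and 10.39 in null skin and 10.24, 10.54, 10.39 and 10.56 in WT skin, the null values all inside the WT range. Aloxe3, which converts the product of Alox12b, had 9.23, 9.18, 9.08 and 9.16 in null skin and 9.19, 9.57, 9.43 and 9.52 in WT skin. The male WT 1 array lay inside the null range, and the difference of -0.26 (adjusted p = 0.0765) was not called. Aloxe3 was called without male WT 1 (-0.36, adjusted p = 0.0131) and after repeated quantile normalization (-0.35, adjusted p = 0.0274).

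Alox12e, an epidermal lipoxygenase of the mouse, rose by the second largest amount of the set. Its signals were 8.15, 7.22, 7.57 and 7.57 in null skin and 6.44, 6.86, 6.67 and 6.79 in WT skin. Null mice varied more than WT mice, with male null 1 highest, but every null array was above every WT array, with a difference of 0.94 (SE 0.18, adjusted p = 0.0108), 1.92-fold. Sdr9c7, the dehydrogenase that acts on the oxidised linoleate, read 9.44, 9.40, 9.44 and 9.53 in null skin and 9.00, 9.23, 9.06 and 9.19 in WT skin. These groups did not overlap either, with a difference of 0.33 (SE 0.07, adjusted p = 0.0125). Both genes kept their calls with any 1 array left out.

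Of 3 transport genes, 2 rose (66.7%, against 10.5% of genes above the negative control median). Abca12, the transporter that loads glucosylceramide into lamellar granules, had 10.25, 10.19, 10.19 and 10.30 in null skin and 9.80, 10.02, 9.75 and 10.00 in WT skin. The groups did not overlap, with a difference of 0.34 (SE 0.07, adjusted p = 0.0189). Nipal4 (Entrez gene 214112), a membrane protein whose human counterpart is mutated in congenital ichthyosis, had 8.31, 8.44, 8.33 and 8.40 in null skin and 7.62, 7.91, 7.62 and 7.92 in WT skin. Again all null arrays were above all WT arrays, with a difference of 0.60 (SE 0.09, adjusted p = 0.00282), 1.52-fold. Slc27a4, which takes up fatty acids and activates them as CoA esters, differed by -0.06 with a confidence interval of -0.19 to 0.07. Nipal4 kept its call with any 1 array left out, while Abca12 lost its call with female null 1 (adjusted p = 0.053), female null 2 (0.057) or male WT 1 (0.0649) left out, and after repeated quantile normalization (0.0502).

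Markers of the granular layer, in which several of these late genes are expressed, were measured beside them. Of 10 such markers, 3 were called higher and 2 lower. These are 30% and 20%, against 10.5% and 9.59% of genes above the negative control median. The filaggrin-related gene Rptn differed by 1.86 and the protease gene Casp14 by 0.52, while Krt2 differed by -0.60 and the cornified envelope gene Lor by -0.35. The mean of the list was 11.20 to 11.33 in null and 11.05 to 11.24 in WT skin, and its part in the rises of barrier lipid genes was not tested.

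**Figure D2:**
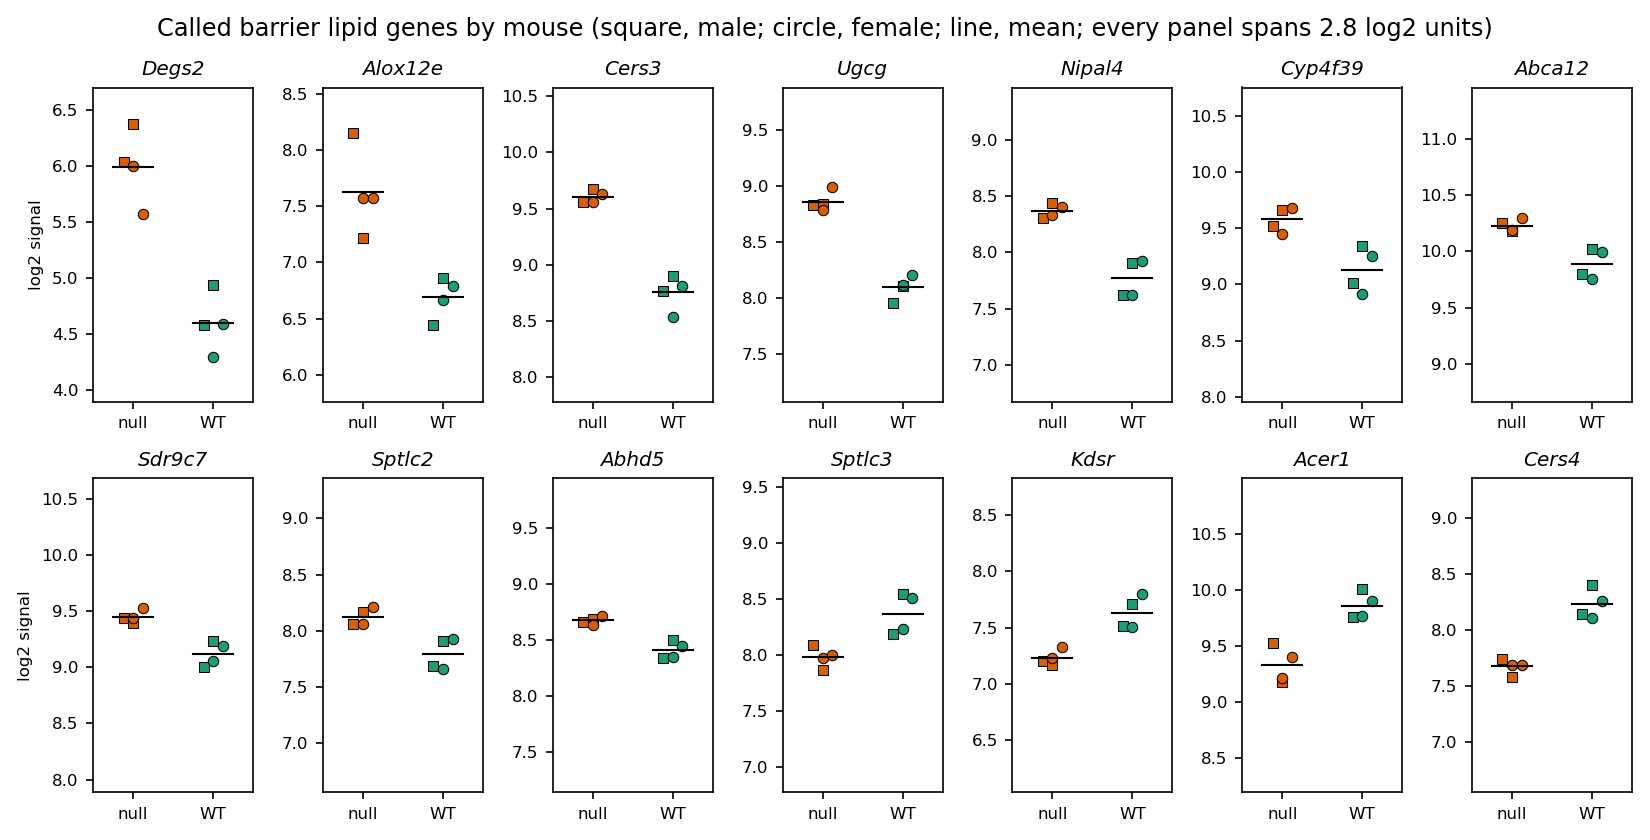
Log2 signal (vertical axis) of the 14 called barrier lipid genes in each mouse, with null mice left of WT mice, squares for males, circles for females and a line at the mean of 4 mice. In each panel the null mice do not overlap with the WT mice: they are above them in 10 genes and below them in Sptlc3, Kdsr, Acer1 and Cers4. The genes were picked by calls on these same arrays, which favours groups that do not overlap, so this is not separate evidence.

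None of the 4 lipase genes was called either, with an unadjusted p under 0.05 in 2 of them, against the same 26.6% of all genes and 37.9% of those above the negative control median. Lipk, Lipm and Lipn belong to the acid lipase family and are expressed late in keratinocyte differentiation. Lipk signals were 6.01, 6.17, 5.88 and 6.45 in null skin and 5.76, 5.86, 4.65 and 5.79 in WT skin. All null arrays were above all WT arrays, by a margin of only 0.01, and the difference was 0.61 (SE 0.24, adjusted p = 0.144). With same-numbered mice as pairs Lipk was called (adjusted p = 0.0362), and without female WT 1, by far the lowest array, its difference was 0.32.

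Lipn had 5.76, 6.00, 5.80 and 6.25 in null skin and 5.79, 5.54, 5.21 and 5.34 in WT skin. The male WT 1 array lay above male null 1, and the difference of 0.48 (SE 0.14, adjusted p = 0.051) narrowly missed the threshold. Lipn was called in 6 of 11 other settings on all 8 arrays and without male WT 1 (0.59, adjusted p = 0.0388) or male null 1 (0.59, adjusted p = 0.0308). Lipm differed by -0.12 (adjusted p = 0.555) and the hydrolase gene Abhd12b by -0.29 (adjusted p = 0.204). Abhd12b ranged widely in WT skin, with 6.34, 6.49, 6.56 and 6.23 in null skin and 6.40, 7.07, 6.64 and 6.67 in WT skin. Without male WT 2 its difference was -0.15, and with single arrays left out that of Lipm ran between -0.22 and -0.05.

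Whether the genotype difference of a barrier lipid gene was the same in males and females was asked of the interaction between sex and genotype. Of the 34 genes 0 were called, against 0.00651% of all genes (2 genes), and 2 of the 34 (5.88%) had an unadjusted p under 0.05, near the 4.26% of all genes. The sign was the same in both sexes in 29 of the 34 (85.3%), against 65.7% of all genes and 75.1% of those above the negative control median. The 14 called genes are among the 29. A call over both sexes nearly fixes the same sign, so these shares are not a test of agreement between the sexes. Degs2 differed by 1.44 in males and 1.34 in females, and Cers3 by 0.78 in males and 0.92 in females. For Alox12e the differences were 1.03 in males and 0.84 in females, with an SE of 0.27 in either sex.

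The genes with the smallest interaction p were Asah1 and Lipn. Asah1 differed by 0.01 in males and -0.37 in females, which is 0.37 males minus females (unadjusted p = 0.0274, adjusted p = 0.974). Lipn differed by 0.22 in males and 0.75 in females, which is -0.54 males minus females (unadjusted p = 0.0458, adjusted p = 0.974). With 2 mice per sex and genotype these gaps were not separated from the spread between mice after adjustment in limma's test.

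**Figure D3:**
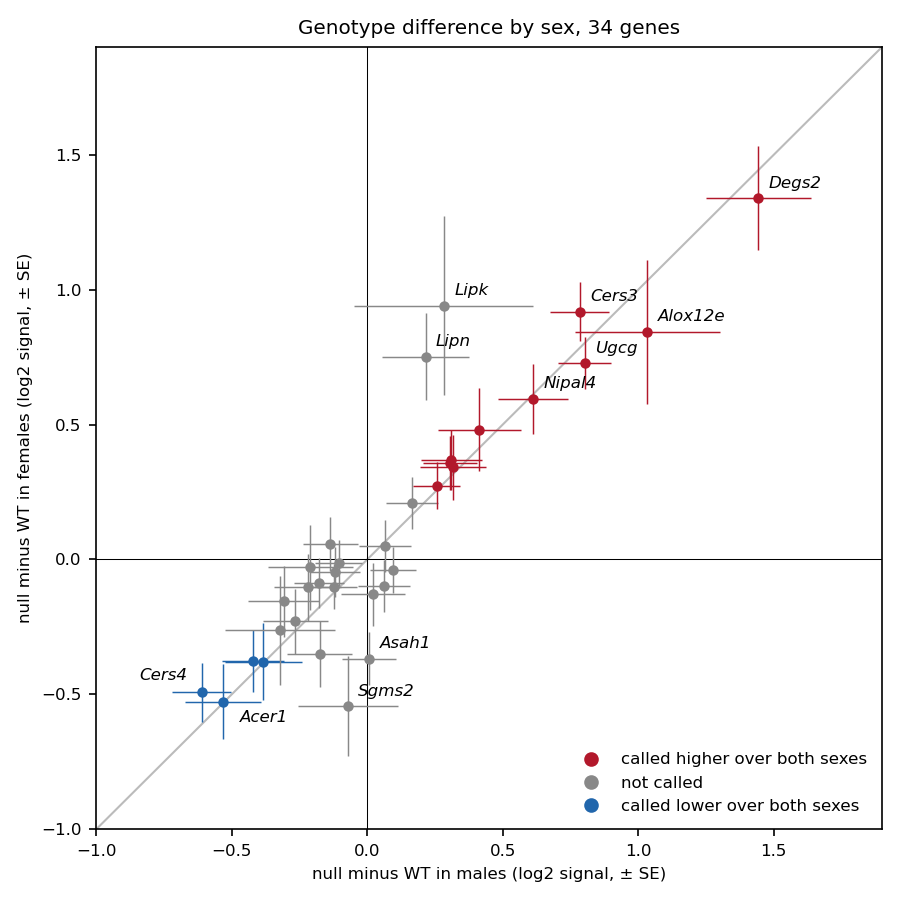
Null minus WT difference in males (horizontal axis) against that in females (vertical axis), both on the log2 scale, for the 34 barrier lipid genes, with bars for the SE and a grey line where both are equal. The called genes lie near the line, with Degs2 at 1.44 in males and 1.34 in females. Calls were made over both sexes on these same arrays, which favours genes near the line, so this is not separate evidence. Lipk, Lipn, Asah1 and Sgms2 lie farthest from it.

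Null arrays lay closer together than WT arrays in most barrier lipid genes. The SD of the null arrays was below that of the WT arrays in 29 of the 34 genes, with a median SD of 0.07 in null and 0.15 in WT skin. Over all genes the null SD was the smaller in 17414 of 30702 (56.7%), with medians of 0.09 in null and 0.10 in WT skin. Among genes above the negative control median that share was 60.4%. The null SD was also the smaller in 31 of 43 other genes of the pathway, 8 of 10 keratinocyte markers and 10 of 12 skeletal muscle markers. Among macrophage markers it was the smaller in 5 of 9, and among fibroblast markers in 3 of 9. No test was made of these spreads.

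Within WT skin the same arrays tended to read high across the set. In both sexes the WT mouse numbered 2 read above the WT mouse numbered 1 in 28 of the 34 genes, against 26.7% of all genes and 32.7% of those above the negative control median. The median gap was 0.23 in males and 0.16 in females, while the same gap between null mice had medians of -0.03 and 0.06. Keratinocyte markers showed this order in 9 of 10 genes and skeletal muscle markers the opposite order in 11 of 12. The part of unequal keratinocyte and muscle content in this spread was not tested.

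**Figure D4:**
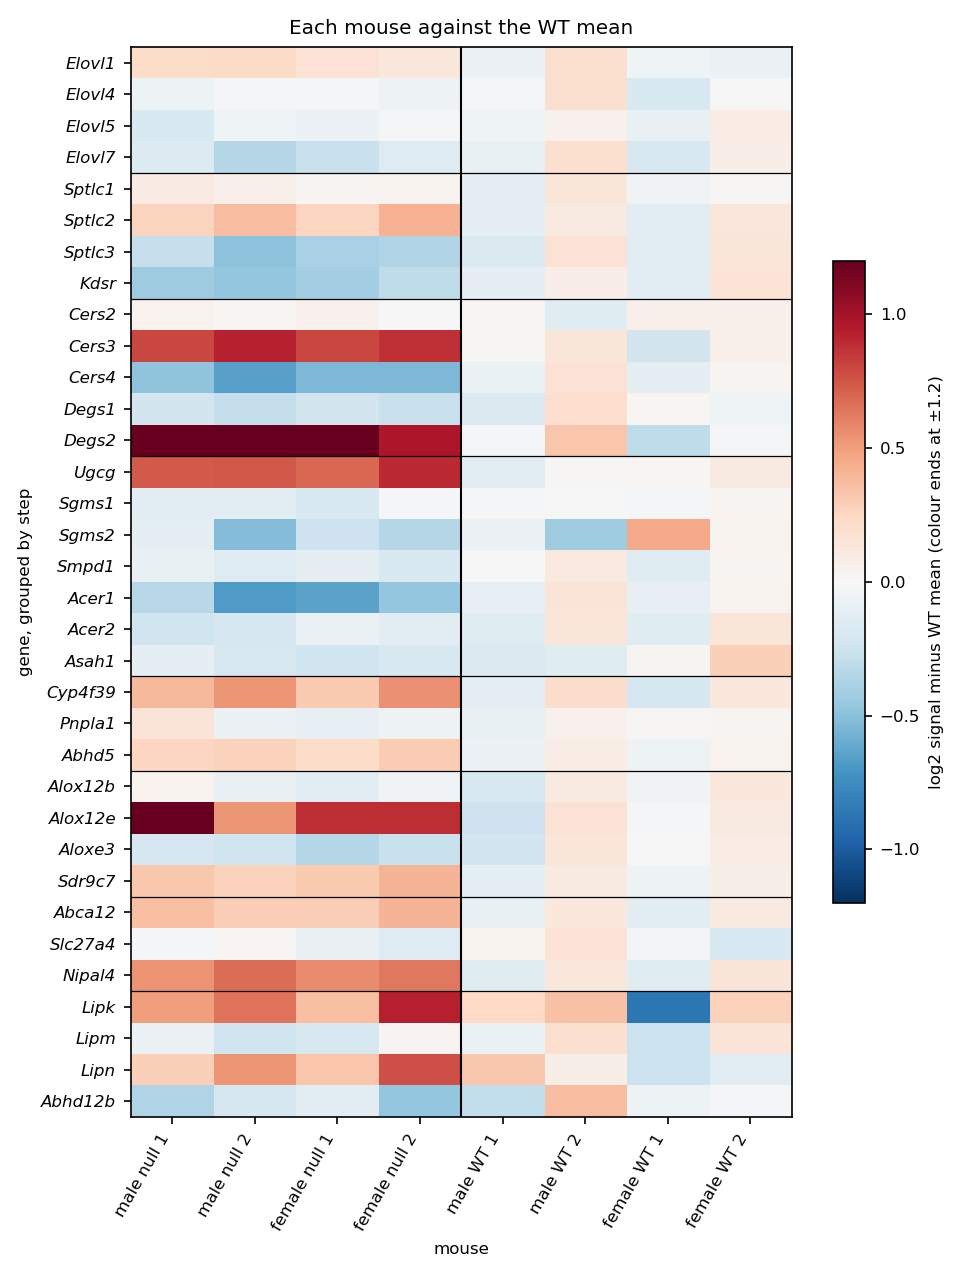
Log2 signal of each barrier lipid gene (rows, grouped by step) in each mouse (columns, null mice left of WT mice) minus the WT mean of that gene, with red above and blue below and colours ending at 1.2. The 4 null columns look alike, while among WT columns those of the mice numbered 2 are mostly redder than those of the mice numbered 1, as in 28 of 34 genes.

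Other genes of the same pathway also changed in both directions. Of 50 listed, 43 were measured, and 8 were called higher and 13 lower in null skin, which is 18.6% and 30.2% of the measured genes, against 7.07% and 5.98% of all genes and 10.5% and 9.59% of genes above the negative control median. The other 7 were not analysed here. These lists too were chosen with earlier results of these data known, so their shares are a description. In the fatty acid elongation cycle 1 of 9 rose (11.1%, near the background) and 3 fell (33.3%). The dehydratase gene Hacd3 rose by 0.34 (adjusted p = 0.0395). The last reductase of the cycle, Tecr, differed by -0.52 (adjusted p = 0.00313), the palmitate elongase gene Elovl6 by -0.51 (adjusted p = 0.00799) and the elongase gene Elovl3, of sebaceous glands, by -0.51 (adjusted p = 0.0382). Tecr read 9.03, 8.92, 8.78 and 8.77 in null skin and 9.29, 9.50, 9.31 and 9.50 in WT skin, without overlap.

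Of 5 other genes of sphingoid base and ceramide synthesis, 1 rose (20%) and 2 fell (40%). The shares were 10.5% and 9.59% of genes above the negative control median. Fa2h, which hydroxylates fatty acids for the hydroxyceramides of skin and myelin, had 8.11, 8.20, 7.88 and 7.67 in null skin and 9.21, 9.44, 8.64 and 8.66 in WT skin. All null arrays were below all WT arrays, with a difference of -1.02 (SE 0.09, adjusted p = 0.000199). The ceramide synthase genes Cers6 and Cers5, both for shorter chains, were called in opposite directions: Cers6 differed by 0.66 (adjusted p = 0.000973) and Cers5 by -0.28 (adjusted p = 0.0182). Cers6 read 6.62, 6.76, 6.60 and 6.79 in null skin and 5.98, 6.09, 5.90 and 6.15 in WT skin, and these did not overlap.

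Some sebaceous gland markers were lower in the same samples. Of 9 measured, 5 were called lower (55.6%, against 9.59% of genes above the negative control median) and 4 did not pass. In 2 (22.2%) all null arrays were below all WT arrays, against 13.5% of genes above that median. Among those called were the melanocortin receptor gene Mc5r at -0.96 and the reductase gene Far2, of wax synthesis, at -0.73. Elovl3, one of these 9, was thus counted in both lists. The list mean was 6.48 to 6.67 in null and 6.70 to 7.27 in WT skin. The part of sebaceous glands in the falls of Fa2h, Elovl3, Cers4 and other genes was not tested.

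Among 15 other ceramide processing genes, 2 rose (13.3%) and 4 fell (26.7%). The share that rose is near the 10.5% of genes above the negative control median, of which 9.59% fell. The neutral sphingomyelinase gene Smpd3 differed by 0.39 (adjusted p = 0.0102) and the non-lysosomal glucosylceramidase gene Gba2 by 0.37 (adjusted p = 0.00688). Ceramidase genes outside the set fell as Acer1 did: Acer3, an alkaline ceramidase, by 0.72 (adjusted p = 0.00785) and Asah2, the neutral ceramidase, by 0.38 (adjusted p = 0.00184). The sphingosine kinase gene Sphk1 differed by -0.29 (adjusted p = 0.0117). Acer3 signals were 6.56, 5.94, 6.12 and 6.40 in null skin and 7.01, 6.88, 6.90 and 7.13 in WT skin, all null below WT.

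Of 14 other genes of lipid transport, hydrolysis and oxidation, 4 rose and 4 fell. These are 28.6% each, against 10.5% and 9.59% of genes above the negative control median. The largest rise was that of Ephx3, an epoxide hydrolase of skin that acts on epoxides of linoleate, with 8.48, 8.79, 8.45 and 8.51 in null skin and 7.07, 7.37, 6.75 and 7.18 in WT skin. Its groups did not overlap, with a difference of 1.46 (SE 0.11, adjusted p = 0.000111). The lipoxygenase gene Alox15 differed by 1.08 (adjusted p = 0.00131), though its WT signals, at 3.82, 3.89, 3.86 and 3.73, lay below the negative control medians, so the size of that rise is not exact. Fabp5, the epidermal fatty acid binding protein, differed by 1.00 (adjusted p = 0.000512). The triglyceride lipase gene Pnpla2, which Abhd5 activates, differed by -0.71 (adjusted p = 0.000877), the lipoxygenase gene Alox12 by -0.33 (adjusted p = 0.0154) and the fatty aldehyde dehydrogenase gene Aldh3a2 by -0.28 (adjusted p = 0.036).

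Markers of other cell types that the dissected skin could hold were also counted. Eccrine gland markers gave 0 calls of 10, with an unadjusted p under 0.05 in limma's test in 3 (30%). Over genes above the negative control median that share was 37.9%. Krt8 differed by 0.37 (adjusted p = 0.154) and Cldn10 by -0.22 (adjusted p = 0.1). Of 9 adipocyte markers 2 were lower, the lipid droplet gene Plin4 at -0.40 and the nuclear receptor gene Pparg at -0.32. Of 9 macrophage markers 2 were lower, Cd163 at -0.97 and C1qc at -0.59. Of 9 fibroblast markers 2 were lower, Dpt at -0.86 and Dcn at -0.83. In the adipocyte, macrophage and fibroblast lists this is 22.2% each, against 9.59% of genes above the negative control median. The other 7 genes of each were not called, and the highest differences were 0.22 for Fabp4, 0.14 for Cd68 and 0.10 for Col1a1. The largest falls called among skeletal muscle markers were those of Neb at -1.05 and Ckm at -0.95.

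**Figure D5:**
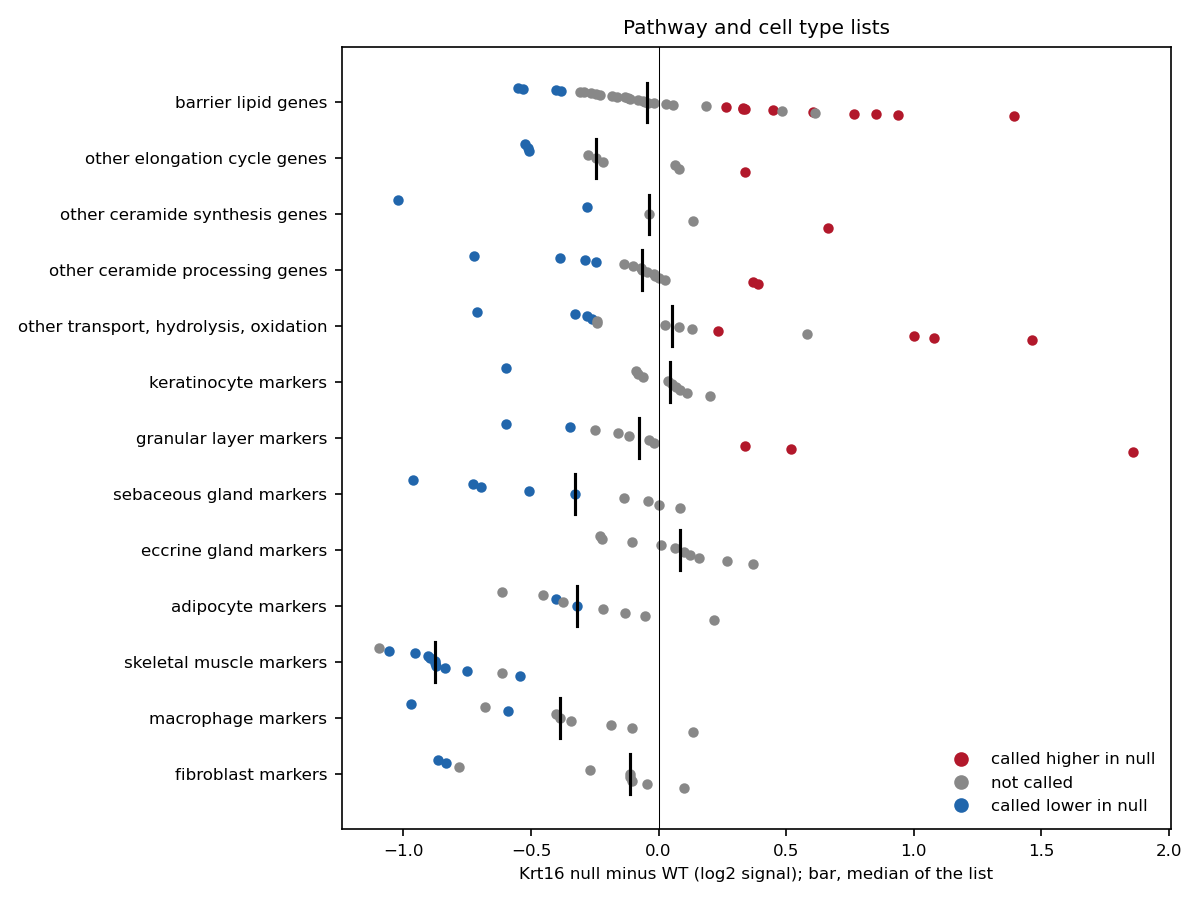
Null minus WT difference on the log2 scale (horizontal axis) of each measured gene of the barrier lipid set, the other pathway lists and the cell type marker lists (rows), with red for called higher, blue for called lower, grey for not called and a bar at the median of the list. The barrier lipid genes spread on both sides of their median of -0.05, while the skeletal muscle markers all lie below 0.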

How the data were processed

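RNA from paw skin was labelled with the Affymetrix WT PLUS kit and hybridised to 8 arrays, per the labels' protocols. Partek and RMA were the authors' tools, per the submitters' processing notes, and gave the deposited log2 values used here. Their versions and settings, the genome build and the annotation are not named in the labels or files (not given in the sources used here). Quantile normalization, a usual part of RMA, removes global shifts, and RMA compresses large changes.

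Of 72688 probe sets, 6732 controls were left out, and 31258 of the rest carried exactly 1 gene after 1152 symbols were updated through a RefSeq table (GRCm38.p6, used for names only). Probe sets of several genes were not named. The brightest probe set stood for each of 441 genes with several. Among the 30702 genes, 422 share all 8 values with another gene, but 0 barrier lipid genes do. No filter on dim genes was applied.

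The test of each difference was that of limma 3.58.1, run in R 4.3.3 (lmFit, eBayes with an intensity trend, sex as covariate, two-sided), Benjamini-Hochberg adjusted over all genes. The interaction used a fit of 4 group means. Python 3.11.15, numpy 2.4.6, pandas 2.3.3 and matplotlib 3.10.9 prepared tables and plots.

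Same-numbered null and WT mice of 1 sex were checked for pairing: after removal of group means their values correlated at 0.316 in males and 0.115 in females, both over the limit of 0.1, so a fit with 4 pairs as a block was run. With 2 mice per sex and genotype both pairs of a sex share 1 correlation, so passing the limit does not show that mice were paired. What a shared number stands for (litter, day) the labels do not say. Other alternatives were no sex term, other scalings, 1 sex alone, each array left out, array weights, a robust prior, no trend, every probe set but the controls, the average over probe sets of a gene, and a filter on dim genes.

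The 34 genes, the other pathway and marker lists and the naming rule were chosen with earlier results of these data known. Every barrier lipid gene is named, as are from each other pathway list the 3 largest called rises and 3 largest called falls, from each marker list 2 of each, or, in a list without calls, its 2 genes of smallest p, and Krt16.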

Additional observations from a re-analysis of the deposited data

Results flagged for a closer look

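In 68 groups of 4 arrays (34 genes in each genotype), 3 held an array that stood apart from the other 3, and chance alone marks about 1 group in 20. Elovl1 read 8.34 in male WT 2, against 8.08 to 8.10 in the other WT mice. Pnpla1 read 8.51 in male null 1, against 8.26 to 8.30 in the other null mice. Lipk read 4.65 in female WT 1, against 5.76 to 5.86 in the other WT mice. None of these 3 genes was called. The difference of Elovl1 was 0.24 and called without male WT 2, and that of Lipk was 0.32 and not called without female WT 1.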

How the results depend on the processing

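Of 714 values of single barrier lipid genes under alternative settings, 660 kept their side of the threshold, 39 lost a call and 15 gained one. Among them 0 called values changed sign, and 12 uncalled values did. Without 1 array in turn, 6 to 11 genes were called higher, against 10, and 3 to 6 lower, against 4. In limma fits on 4 arrays, males alone gave 4 higher and 1 lower, and females alone 4 higher and 0 lower. Such fits have fewer samples, and what lowered the counts was not tested. Pairing the mice as a block gave 11 higher and 4 lower, against 2545 and 2017 of all genes. Lipk was the added call (adjusted p = 0.0362), and no other call among the 34 changed. The interaction gave 0 calls in each alternative that allows it. Over all genes the counts, 2170 higher and 1837 lower, dropped to 1311 and 1075 without male WT 1, 1209 and 849 without male null 2, 1230 and 843 without female null 1, 802 and 388 in males alone and 231 and 142 in females alone, while lower calls dropped to 1112 without female null 2 and 931 with arrays centred on keratinocyte markers. Signals near the negative controls, as for Degs2 in WT skin, limit the size of a fold change.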
